A study of Mus musculus with 50 samples.

Results

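The muscarinic acetylcholine receptors are 5 G protein-coupled receptors, encoded in the mouse by *Chrm1*, *Chrm2*, *Chrm3*, *Chrm4* and *Chrm5*. They were picked by gene symbol, and all 5 were found among the 24552 genes of both count tables. All 5 also passed the filter on low counts in every comparison. The question addressed here was where their mRNA sat among the cell types of the nucleus accumbens (NAc), and whether it moved with social defeat stress or with *Sirt1* genotype.

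By background, the M1, M3 and M5 receptors (*Chrm1*, *Chrm3*, *Chrm5*) couple to Gq/11 proteins, which activate phospholipase C, and the M2 and M4 receptors (*Chrm2*, *Chrm4*) couple to Gi/o proteins, which inhibit adenylyl cyclase. Acetylcholine in the striatum and NAc is released mostly by local cholinergic interneurons onto medium spiny neurons (MSNs). M1 is known in both MSN types, M4 as a receptor favoured in MSNs that carry the D1 dopamine receptor, and M2 as an autoreceptor of cholinergic interneurons.

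The samples were NAc tissue of C57BL/6 mice that carried RiboTag (RT), a floxed allele that puts an HA tag on a ribosomal protein wherever Cre is active. Mice were RT; D1-Cre or RT; D2-Cre, and the tag follows Cre driven by D1 or D2 receptor gene sequences, so an HA immunoprecipitation (IP) collects mRNA on ribosomes of those cells, whatever their type. The IP libraries were 4 Con, 4 Res and 5 Sus of the D1 line and 5 of each of the D2 line, and the inputs, RNA of the same kind of homogenate left without IP, were 3 per group and line. Con mice were not defeated, and defeated mice met a CD1 aggressor each day, 10 min at a time by the labels (a shorter time in the study's methods) and on no more than 10 days, and were sorted into resilient (Res) or susceptible (Sus) by social interaction. Mice of these 46 libraries were 8 to 12 weeks old. A further 4 D1-IP libraries, labelled Sirt1-KO, came from male RT; Sirt1-floxed; D1-Cre mice without defeat, of unstated age. Each IP or input library pooled 2 mice, and p-values here measure the spread between such pools.

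Named genes took between 18384265 and 31009626 counts per IP or input library. The line labels held: *Drd1* stood at 332 ± 29.3 CPM (counts scaled to a common library size; SD, n = 13) in D1-IPs against 134 ± 21.2 (n = 15) in D2-IPs, and *Drd2* at 97.8 ± 11.8 against 343 ± 27.7. The D1-IPs were not of MSNs alone by their markers, since *Slc17a7*, the vesicular glutamate transporter of cortical excitatory neurons, stood at 645 ± 209 CPM in them and at 135 ± 71.6 in D2-IPs. *Chat*, the acetylcholine-synthesizing enzyme of cholinergic interneurons, stood at 2.42 ± 1.36 CPM in D1-IPs and 23.9 ± 4.73 in D2-IPs. In such bulk libraries, fewer cells of a type and less RNA per cell cannot be told apart.

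The 5 genes lie on 4 chromosomes of the GRCm38 (mm10) genome. In the GENCODE vM21 annotation, *Chrm1* spans chr19:8663789-8683587 on the plus strand, *Chrm2* chr6:36388084-36528414 (plus), *Chrm3* chr13:9875486-10360847 (minus), *Chrm4* chr2:91927249-91928688 (plus) and *Chrm5* chr2:112479171-112480769 (minus). That annotation gives *Chrm4* and *Chrm5* an exon length of 1440 and 1599 bases, which is almost their coding length alone (1437 and 1596), and gives *Chrm1*, *Chrm2* and *Chrm3* exon lengths of 6487, 6053 and 6253 bases. A long noncoding gene on the other strand overlaps *Chrm2* (9330158H04Rik) and *Chrm3* (Gm26861). The libraries were made with a stranded kit, but the strand setting of the counting is not given in the sources used here, so reads of these partners cannot be told apart from those of the receptors.

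*Chrm4* was the receptor that separated the lines fully (values below), so its promoter is shown. RefSeq starts *Chrm4* at chr2:91922189, upstream of the GENCODE start given above. The stretch holds the 250 bases before the RefSeq start of *Chrm4*, chr2:91921939-91922188 on the plus strand of GRCm38.p6, with each GC box (GGGCGG or its reverse complement CCGCCC) in capitals.
Chrm4 promoter: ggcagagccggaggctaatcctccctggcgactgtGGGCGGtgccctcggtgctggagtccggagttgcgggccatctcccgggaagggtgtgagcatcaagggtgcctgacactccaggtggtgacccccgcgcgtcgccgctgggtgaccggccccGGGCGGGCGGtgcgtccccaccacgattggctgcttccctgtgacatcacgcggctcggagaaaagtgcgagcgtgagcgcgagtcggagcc
It held 3 matches to the GC box, of which 2 overlap each other, and 32.7% of the 32851 RefSeq promoters hold at least 1 in the same window. Its GC content was 70.0% with 26 CpG dinucleotides, against medians of 52.4% and 6 over all promoters, and 90.8% of promoters had a lower GC content.

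*Chrm1* was the most abundant of the 5 by CPM in every kind of library, then came *Chrm4*, *Chrm3*, and last *Chrm2* and *Chrm5* at a few CPM. In D1-IPs *Chrm1* ran from 257.9 to 314.6 CPM with a median of 269.2, and in D2-IPs from 249.3 to 306.2 with a median of 282.2. D1-inputs held 123.3 to 176.4 CPM of *Chrm1* (median 145.5) and D2-inputs 99.0 to 180.7 (median 155.7). Every IP library of either line thus lay above every input library of that line, and the lines themselves overlapped. For this gap and those of the other receptors below, the share of all genes with such a gap was not counted.

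*Chrm4* ran from 115.1 to 148.3 CPM in D1-IPs (median 122.3) and from 53.8 to 90.9 in D2-IPs (median 65.3). Its input levels were 57.1 to 78.5 CPM in the D1 line (median 61.0) and 48.8 to 70.6 in the D2 line (median 61.0). The 13 D1-IPs lay above all 15 D2-IPs and above every D1-input, while 5 of the 15 D2-IPs lay above all D2-inputs.

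*Chrm3* ran from 19.4 to 37.3 CPM in D1-IPs (median 26.2), from 15.3 to 22.8 in D2-IPs (median 19.3), from 12.4 to 25.8 in D1-inputs (median 17.1) and from 15.8 to 23.6 in D2-inputs (median 19.998). Here 10 of the 13 D1-IPs exceeded all D2-IPs and 8 exceeded all D1-inputs. The ranges of D2-IPs and D2-inputs, and of the inputs of both lines, overlapped widely.

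*Chrm2* had its highest values in the inputs, with 5.03 to 8.84 CPM in D1-inputs (median 6.86) and 4.17 to 10.96 in D2-inputs (median 6.02). It ran from 1.67 to 3.75 CPM in D1-IPs (median 2.73) and from 0.665 to 2.60 in D2-IPs (median 1.74). Every IP of a line lay below every input of that line, and 10 of the 13 D1-IPs lay above all D2-IPs. *Chrm2* rested on 17 to 236 counts per library.

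*Chrm5* was the sparsest, at 16 to 92 counts per library. Its CPM ran from 0.973 to 2.89 in D1-IPs (median 1.81), from 0.686 to 3.03 in D2-IPs (median 1.51), from 0.766 to 2.84 in D1-inputs (median 2.21) and from 0.906 to 4.27 in D2-inputs (median 1.72). No kind of library stood apart from another for *Chrm5*.

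**Figure D1:**
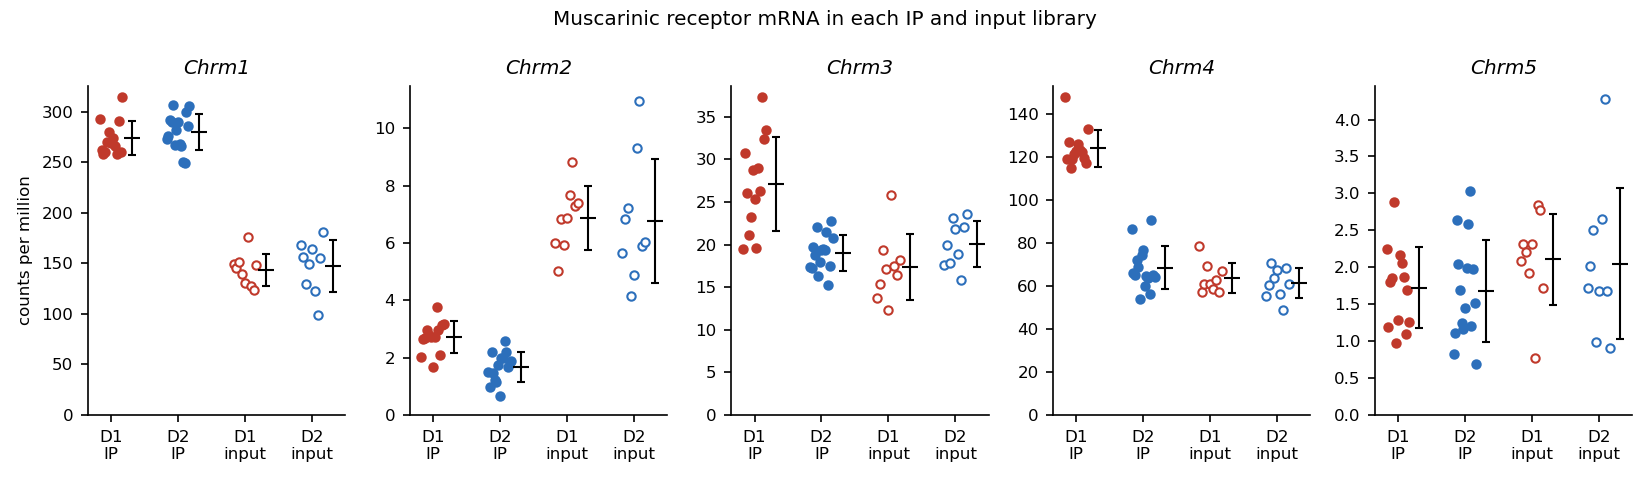
CPM of each receptor gene (vertical axis, from 0, a separate scale for each gene) in each D1-IP (n = 13), D2-IP (n = 15), D1-input and D2-input (n = 9 each) library. Points are libraries and the black marks the mean ± SD. *Chrm1* is higher in IPs than inputs of both lines, *Chrm4* is high only in the D1-IPs (115.1 to 148.3 CPM), and *Chrm2* is lower in all IPs than in inputs.

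Between genes, levels are comparable only per length, and then the order depended on which length was used. The exon lengths are those of GENCODE, which gives *Chrm4* and *Chrm5* almost no sequence outside the coding part. RefSeq lets these genes span 7647 and 57629 bases with introns, against 1440 and 1599 here. The annotation behind the counts is not given, so the ranks of *Chrm4* and *Chrm5* per kb of exon hold for these lengths alone. Per kb of exon, D1-IPs held 86.3 ± 5.97 CPM of *Chrm4*, 42.2 ± 2.60 of *Chrm1*, 4.34 ± 0.879 of *Chrm3*, 1.08 ± 0.343 of *Chrm5* and 0.450 ± 0.0899 of *Chrm2* (SD, n = 13). In D2-IPs the same scale gave 47.7 ± 7.09 for *Chrm4* and 43.2 ± 2.77 for *Chrm1* (n = 15), neighbours that lay within their spread of each other. *Chrm3* followed at 3.04 ± 0.343, *Chrm5* at 1.05 ± 0.432 and *Chrm2* at 0.276 ± 0.0861. In the inputs, *Chrm5* (1.32 ± 0.387 in the D1 line) and *Chrm2* (1.14 ± 0.185) also lay within their spread of each other. Per kb of coding sequence, *Chrm1* came first instead, at 198 ± 12.2 CPM per kb against 86.5 ± 5.98 for *Chrm4* in D1-IPs, and *Chrm2* passed *Chrm5* at 1.95 ± 0.389 against 1.08 ± 0.343. These counts were of whole genes and not of coding reads alone. Reads outside the coding part would raise *Chrm1*, *Chrm2* and *Chrm3* on this scale.

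The first comparison asked which receptors differed between ribosome-bound mRNA of the D1 and D2 lines. *Chrm4* was 1.80-fold higher in D1-IPs than in D2-IPs (log2 fold change 0.84, SE 0.060, 95% interval 0.72 to 0.97, adjusted p = 4.22e-12 by edgeR's quasi-likelihood test with Benjamini-Hochberg adjustment, as for every adjusted p here). *Chrm2*, the other Gi/o-coupled receptor, was 1.60-fold higher (0.68, SE 0.143, 95% interval 0.39 to 0.97, adjusted p = 3.38e-04). *Chrm3*, Gq/11-coupled, was 1.38-fold higher (0.47, SE 0.072, adjusted p = 6.51e-06), which did not reach the 1.5-fold limit of a call. *Chrm1* had a log2 difference of -0.05 (95% interval -0.12 to 0.02, adjusted p = 0.280) and *Chrm5* one of 0.02 (-0.40 to 0.44, adjusted p = 0.941). A gene was called when its adjusted p was under 0.05 and it changed by more than 1.5-fold, and 2 of the 5 receptors passed, both higher in D1-IPs, where 7.66% of the 14224 genes tested were called (703 higher and 386 lower in D1-IPs).

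Within the stress groups, *Chrm4* had a log2 difference between lines of 0.81 in Con, 0.88 in Res and 0.84 in Sus, each called. *Chrm2* had 0.79 in Con (adjusted p = 0.0349), 0.70 in Res (0.0546) and 0.54 in Sus (0.110), so its call was lost with Res or Sus pools alone. *Chrm3* had 0.34 in Con (adjusted p = 0.0733), 0.38 in Res (0.0390) and 0.68 in Sus (1.44e-04), past the fold limit in Sus. With each of the 28 IPs left out in turn, *Chrm4* stayed between 0.82 and 0.89, *Chrm2* between 0.62 and 0.74 and *Chrm3* between 0.43 and 0.50. 

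Markers of cortical excitatory neurons moved with the line as well. Of the 7 on the list (among them *Slc17a7*, *Neurod6*, *Neurod2*, *Tbr1*, *Nrgn* and *Emx1*), 6 were called higher in D1-IPs, with a median log2 difference of 1.89 (*Nrgn* had -0.35), and their summed level was 857 to 1971 CPM in D1-IPs against 464 to 923 in D2-IPs. Of the 7 cholinergic interneuron markers, 4 were lower and 1 higher (*Isl1*) in D1-IPs, with a summed level of 29.1 to 60.1 CPM against 69.2 to 152 in D2-IPs. Astrocyte and oligodendrocyte markers had median log2 differences of 0.48 and 0.33, with none called. Microglial and endothelial markers had -0.46 and -0.36, with 1 of 5 microglial markers called lower in D1-IPs. The *Chrm2* call compared low levels, 2.72 ± 0.544 CPM in D1-IPs and 1.67 ± 0.521 in D2-IPs, both below the inputs. The part of these cells in the receptor differences was not tested.

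Against the inputs, which hold RNA of all NAc cells, *Chrm1* was higher in the IPs of both lines by nearly the same amount. The fold change was 1.91 in the D1 line (log2 0.93, SE 0.068, adjusted p = 5.13e-16) and 1.90 in the D2 line (0.93, SE 0.067, adjusted p = 2.76e-16). *Chrm4* was 1.95-fold higher in D1-IPs than D1-inputs (0.97, SE 0.074, adjusted p = 2.24e-15) but 1.12-fold higher in D2-IPs than D2-inputs (0.16, SE 0.071, 95% interval 0.02 to 0.30, adjusted p = 0.0367), under the fold limit. *Chrm3* was 1.53-fold higher in D1-IPs than D1-inputs (0.62, SE 0.098, adjusted p = 3.19e-07) and lay close to the fold limit. Without D1 Res input replicate 2, the input with the lowest *Chrm3* (12.4 CPM), it had 0.55 and was no longer called, and without D1 Res input replicate 3, the highest (25.8 CPM), it had 0.73. In the D2 line *Chrm3* had -0.08 (95% interval -0.27 to 0.12, adjusted p = 0.459).

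*Chrm2* was lower in the IPs of both lines, by 2.55-fold in the D1 line (log2 -1.35, SE 0.149, adjusted p = 7.81e-11) and by 4.06-fold in the D2 line (-2.02, SE 0.148, adjusted p = 5.70e-16). *Chrm5* had log2 differences of -0.26 (95% interval -0.76 to 0.24, adjusted p = 0.324) and -0.27 (-0.76 to 0.21, adjusted p = 0.292), with intervals wider than those of the other receptors. In all, 4 of the 5 receptors were called in the D1 line and 2 of the 5 in the D2 line, against a background of 43.1% and 43.6% of the 15404 genes tested, so calls were common among all genes in both comparisons. Markers of glia and vessels fell in the IPs, with all 5 astrocyte markers (median log2 -3.06 in the D1 and -3.54 in the D2 line), all 5 microglial markers (-4.60 and -4.07), all 5 oligodendrocyte markers (-3.15 and -3.28) and all 4 endothelial markers (-3.72 and -3.51) called lower in both lines. The 3 general neuron markers had medians of 0.88 (2 called) and 0.52 (1 called), the D2-MSN markers 0.88 in the D1 line (3 of 5 called) and 2.47 in the D2 line (5 of 5), and the D1-MSN markers 0.83 (4 of 5 called higher) and -0.34 (2 of 5 called lower). Their part in the receptor values was not tested.

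The test of whether enrichment itself differed between lines asked for the IP-against-input difference of the D1 line minus that of the D2 line. It was 0.81 for *Chrm4* (log2, SE 0.101, adjusted p = 9.86e-08), 0.69 for *Chrm3* (SE 0.135, adjusted p = 1.46e-04) and 0.67 for *Chrm2* (SE 0.213, adjusted p = 0.0165). These 3 of 5 receptors were called, against 7.59% of 15404 genes. *Chrm1* had 0.00 (95% interval -0.18 to 0.19) and *Chrm5* 0.01 (-0.69 to 0.71). For *Chrm3*, the value also took in the inputs. Its IPs alone differed by 0.47, without a call, and its D1-inputs from D2-inputs by -0.21 (edgeR unadjusted p = 0.0880). With IPs blocked with their own inputs, the enrichment difference of *Chrm2* had an adjusted p of 0.0726 (log2 0.65) and its call was lost. That fit rested on the 18 IPs that have an input, so the block and the smaller number of IPs cannot be told apart there. With control libraries only, both *Chrm2* (0.93, adjusted p = 0.0769) and *Chrm3* (0.53, adjusted p = 0.124) lost their calls and *Chrm4* alone remained. The *Chrm2* call was also lost when D2 Res IP replicate 3 (0.58, under the fold limit), D2 Res input replicate 3 (adjusted p = 0.0513) or D2 Sus input replicate 1 (adjusted p = 0.0594) was left out. Cortical markers again moved alongside: 3 of 7 were called higher in D1-IPs than D1-inputs (median log2 0.76) and 6 of 7 lower in D2-IPs than D2-inputs (median -1.56), with *Nrgn* called higher there (1.09).

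**Figure D2:**
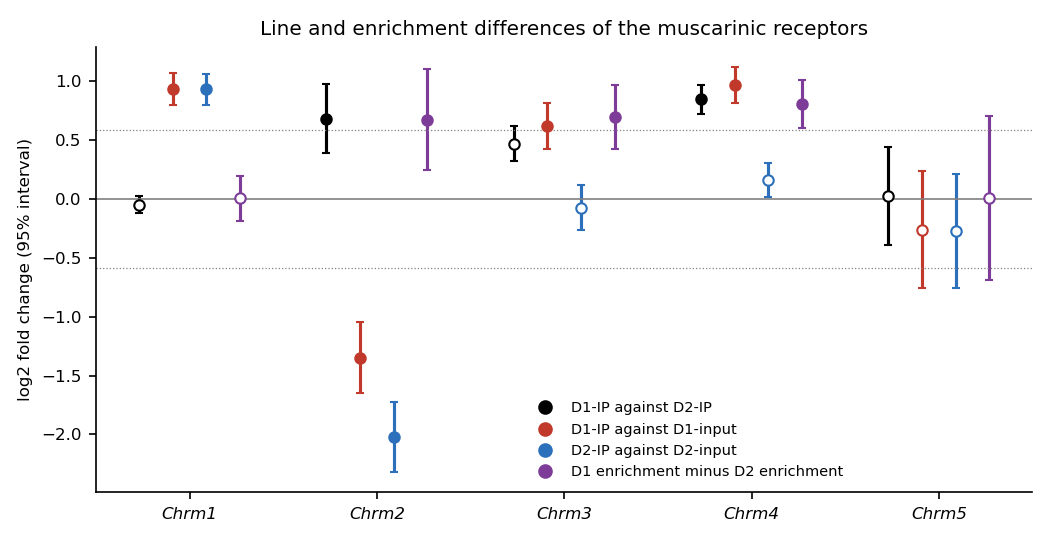
Log2 fold changes with 95% intervals (vertical axis) of each receptor gene in 4 comparisons, in colours. Filled points were called (adjusted p under 0.05 and a change of more than 1.5-fold), open points were not, and dotted lines mark a 1.5-fold change. *Chrm4* is called in each comparison but D2-IP against D2-input (0.16), *Chrm2* is the only receptor with both IP values below 0 and called (-1.35 and -2.02), and *Chrm1* has equal enrichment in both lines (0.93).

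The inputs of the 2 lines were compared as a check on the tissue itself. None of the 5 receptors was called by edgeR or DESeq2, and none had an unadjusted p under 0.05 in edgeR, where 0.0266% of 15063 genes (4 genes; 11 with DESeq2, and 726 at an unadjusted p under 0.05) were. The unadjusted p was lowest for *Chrm3*, at 0.0880, with 17.3 ± 3.87 CPM in D1-inputs and 20.1 ± 2.71 in D2-inputs (SD, n = 9 each). *Chrm4*, which differed most clearly between the IPs, stood at 63.7 ± 6.97 and 61.4 ± 7.02 CPM in these inputs.

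Across the 12 group means of log2 CPM, given as a description over groups that share depth and line, the gene most like *Chrm4* was *Ndfip2* (Pearson r = 0.981), with *Tmem246* (0.980) and *Tac1* (0.974), the substance P precursor of D1-MSNs, next. *Chrm1* was most like *Rbfox3* (0.998), the neuronal nuclear antigen NeuN, then *Tmem121b* and *Cdk5r1*. *Chrm3* was most like *Nrp2* (0.972), a semaphorin co-receptor, then *Tmem132d* (0.947) and *Tdp1* (0.944). *Chrm2* was most like *Ostf1* (0.991), *Cpeb1* (0.989) and *Lnx1* (0.989). The genes most like *Chrm5* (*Tekt4*, 0.933, *Efcab9*, 0.899, and *Uox*, 0.889) all stood under 1 CPM. Among the receptors themselves, *Chrm1* and *Chrm2* ran opposite (r = -0.95), and *Chrm3* and *Chrm4* ran together (r = 0.82). The 12 means are of IPs and inputs together. *Chrm1* was higher and *Chrm2* lower in the IPs of both lines, so their r takes in that difference.

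Other genes of muscarinic signalling were read from a list of 44 measured genes by role. Between D1-IPs and D2-IPs, 43 were tested and 5 were called higher and 4 lower in D1-IPs (7.66% of all genes were called in either direction), with a list median of -0.01 against -0.02 over all genes. The 4 lower ones all handle acetylcholine: *Slc18a3*, the vesicular transporter (log2 -3.88), *Chat* (-3.35), *Slc5a7*, the choline transporter (-3.28), and *Prima1*, the membrane anchor of acetylcholinesterase (-1.04). Among the higher ones were *Gna14*, a Gq/11-family alpha subunit (3.14, from 0.108 ± 0.0892 CPM in D2-IPs to 1.00 ± 0.439 in D1-IPs), the inward rectifier channel genes *Kcnj6* (1.34) and *Kcnj3* (0.86), and the protein kinase C gene *Prkca* (0.71). None of the 5 Gi/o alpha subunits and none of the 12 tested regulators was called.

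Against D1-inputs, 12 of 44 were called higher and 9 lower in D1-IPs (list median 0.31, all genes -0.04), and against D2-inputs 13 were higher and 8 lower in D2-IPs (0.21, all genes -0.08). Over all genes 43.1% and 43.6% were called, so the share of the list called in either direction was close to that of all genes. By direction, all genes had 2119 higher and 4513 lower in D1-IPs, and 1969 higher and 4748 lower in D2-IPs. Calls of the list were thus more often higher, and those of all genes more often lower, a difference that was not tested. Higher in both were *Rgs14*, a regulator of G protein signalling (1.23 and 1.36), *Rgs2* (0.99 and 1.23), *Kcnj4* (1.18 and 1.16), *Plcb1*, the phospholipase C beta 1 gene (0.91 and 1.09), and *Adcy5*, the main striatal adenylyl cyclase (0.59 and 0.91). Lower in both were *Bche*, butyrylcholinesterase (-3.43 and -3.54), *Plcb3* (-2.78 and -2.39) and *Gnai2* (-0.80 and -0.84). *Chat* was lower in D1-IPs (-2.70) and higher in D2-IPs (0.71) than in the inputs, and for the difference of those differences it had -3.42. In that test, 6 of 44 were called higher and 4 lower in the D1 line (7.59% of all genes were called), and between the inputs none was called by edgeR, with *Gna14* and *Rgs9* at an unadjusted p under 0.05.

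The stress comparisons asked whether the receptors differed between Con, Res and Sus pools. By the study's rule, an unadjusted p under 0.05, *Chrm3* was the only receptor called, in D1-IPs. *Chrm3* stood at 19.4, 30.7, 26.1 and 21.1 CPM in the 4 D1 Con IPs, at 23.3, 28.7, 25.3 and 19.6 in the 4 Res IPs and at 29.0, 26.2, 37.3, 32.4 and 33.4 in the 5 Sus IPs. Of the Sus pools, 3 of 5 lay above all Con pools and 4 of 5 above all Res pools, with the ranges overlapping in both cases.

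The log2 difference of *Chrm3* in Sus against Con was 0.38 (1.30-fold, SE 0.127, 95% interval 0.12 to 0.64), with an unadjusted p = 0.00582 and an adjusted p = 0.846 from edgeR and p = 0.0556 from a two-sided exact permutation test on log2 CPM. In Sus against Res it was 0.38, with an unadjusted p = 0.00522, an adjusted p = 0.999 and p = 0.0317 from the exact permutation test, and 0.00794 is the smallest p these group sizes allow in that test. Neither passed the correction over all genes. In D1-IPs, 1 of 5 receptors was thus called in Sus against Con, where 5.34% of 14224 genes were, 0 in Res against Con (2.11%) and 1 in Sus against Res (4.23%). The 3 comparisons share their libraries. No gene of the table passed an adjusted p under 0.05 in Sus against Con or Sus against Res, and 1 gene, not a receptor, did in Res against Con.

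No cortical marker was called in these comparisons. *Slc17a7* stood at 603 ± 231 CPM in Con, 582 ± 149 in Res and 730 ± 244 in Sus D1-IPs, within the spread of the pools, and Sus replicate 3 had the highest value of both *Slc17a7* (1132 CPM) and *Chrm3* (37.3 CPM). The 7 cortical markers summed to 869 to 1606 CPM in Con, 857 to 1372 in Res and 1030 to 1971 in Sus, with a median log2 difference of 0.30 for Sus against Con. Called in Sus against Con, with no adjusted p below 0.846, were 4 of 5 D2-MSN markers (*Adora2a*, *Drd2*, *Gpr6* and *Penk*, lower, list median -0.21), 2 of 5 markers of all MSNs (lower, -0.10) and 1 of 5 astrocyte markers (*Aqp4*, higher by 0.49). The D2-MSN markers summed to 2393 to 3496 CPM in Con and 2079 to 2629 in Sus, and the astrocyte markers to 39.9 to 64.9 and 40.4 to 78.8. The part of these cells in the *Chrm3* difference was not tested. Without D1 Sus replicate 3, *Chrm3* had a log2 difference of 0.31 against Con and was still called.

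**Figure D3:**
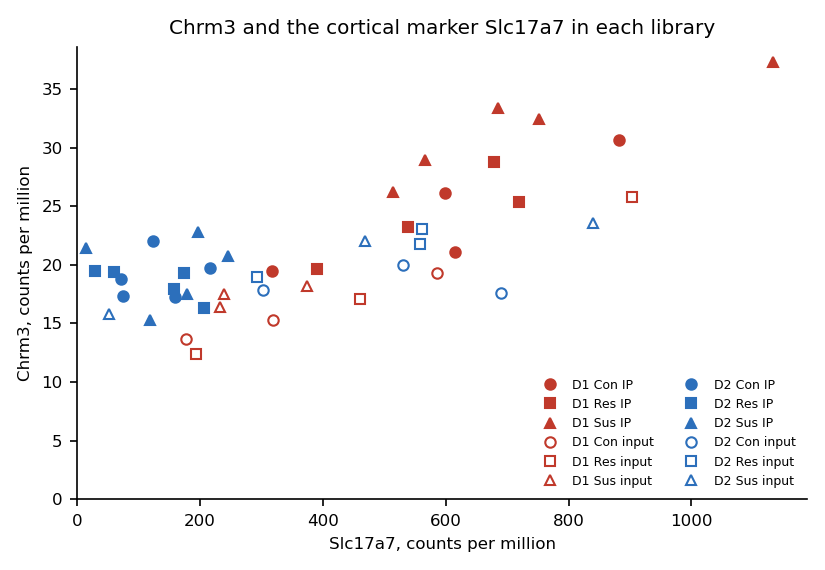
*Chrm3* (vertical axis, CPM) against the cortical excitatory marker *Slc17a7* (horizontal axis, CPM) in each IP (filled) and input (open) library, with D1 in red and D2 in blue and a shape for each stress group. Of the D1 Sus IPs (filled red triangles), 3 of 5 lie above all D1 Con IPs, up to 37.3 CPM at 1132 CPM of *Slc17a7*. The others overlap with D1 Con IPs, and the D2-IPs lie at the lower left.

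In D2-IPs, 0 of 5 receptors were called in Sus against Con (3.68% of 14224 genes), Res against Con (3.02%) or Sus against Res (1.66%). *Chrm2* came nearest, at 1.49, 0.964, 2.20, 1.46 and 1.21 CPM in Con, 1.14, 1.74, 0.665, 1.99 and 1.99 in Res and 2.60, 2.21, 1.68, 1.84 and 1.89 in Sus. Its log2 difference was 0.47 against Con (unadjusted p = 0.0660 from edgeR, p = 0.0635 from the exact permutation test) and 0.44 against Res (0.0791 and 0.143), and 2 of 5 Sus pools lay above all pools of either group. Against Con it was called without D2 Con replicate 3, which held the most *Chrm2* of that group, or without D2 Sus replicate 3, which held the least. Leaving out D2 Sus replicate 3 also brought *Chrm4* to a call against Con, at a log2 difference of -0.20. *Chrm3*, by contrast with the D1 line, stood at 19.0 ± 1.99 CPM in D2 Con, 18.5 ± 1.37 in Res and 19.5 ± 3.09 in Sus IPs (SD, n = 5 each).

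Whether a stress difference itself differed between lines was tested by an interaction. For *Chrm3* in Sus against Con this was 0.34 (log2, SE 0.176, 95% interval -0.02 to 0.70), and 0 of 5 receptors were called there (1.82% of 14224 genes) or in Res against Con (2.36%). The *Chrm3* difference in the D1 line was therefore not shown to differ from that in the D2 line.

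*Chrm1*, *Chrm4* and *Chrm5* had no call in any stress comparison of the IPs with all libraries in. *Chrm4* stood at 127.5 ± 14.8 CPM in D1 Con (n = 4), 122.5 ± 3.00 in Res (n = 4) and 123.3 ± 6.06 in Sus (n = 5), and at 71.9 ± 8.75, 66.0 ± 9.61 and 68.2 ± 13.2 CPM in the D2 groups (n = 5 each). *Chrm5* stood between 1.60 ± 0.405 (D1 Sus) and 1.83 ± 0.867 CPM (D1 Res) in the 6 groups. *Chrm2* in D1-IPs stood at 2.59 ± 0.391 CPM in Con, 2.48 ± 0.542 in Res and 3.03 ± 0.600 in Sus.

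In the inputs, tested over both lines with the line as a term, 0 of 5 receptors were called in Sus against Con (4.13% of 15063 genes), Res against Con (2.97%) or Sus against Res (4.86%). *Chrm2* had means of 5.96 ± 0.898 CPM in Con, 6.82 ± 0.870 in Res and 7.85 ± 0.864 in Sus D1-inputs, and of 6.58 ± 0.813, 6.12 ± 2.78 and 7.63 ± 2.89 in D2-inputs (SD, n = 3 each), and it was not called in any of the 3 comparisons. The 3 D1 Sus inputs, at 8.84, 7.30 and 7.40 CPM, all lay above the 3 D1 Con inputs, at 6.00, 5.03 and 6.83, while the D2 groups overlapped. The share of all genes with such a gap between 3 and 3 pools was not counted, and *Chrm2* was not called in the D1 line alone either. No gene passed an adjusted p under 0.05 in these inputs by edgeR. DESeq2 called the same number of receptors as edgeR in every stress comparison, 1 in each of the 2 D1 Sus comparisons and 0 elsewhere.

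**Figure D4:**
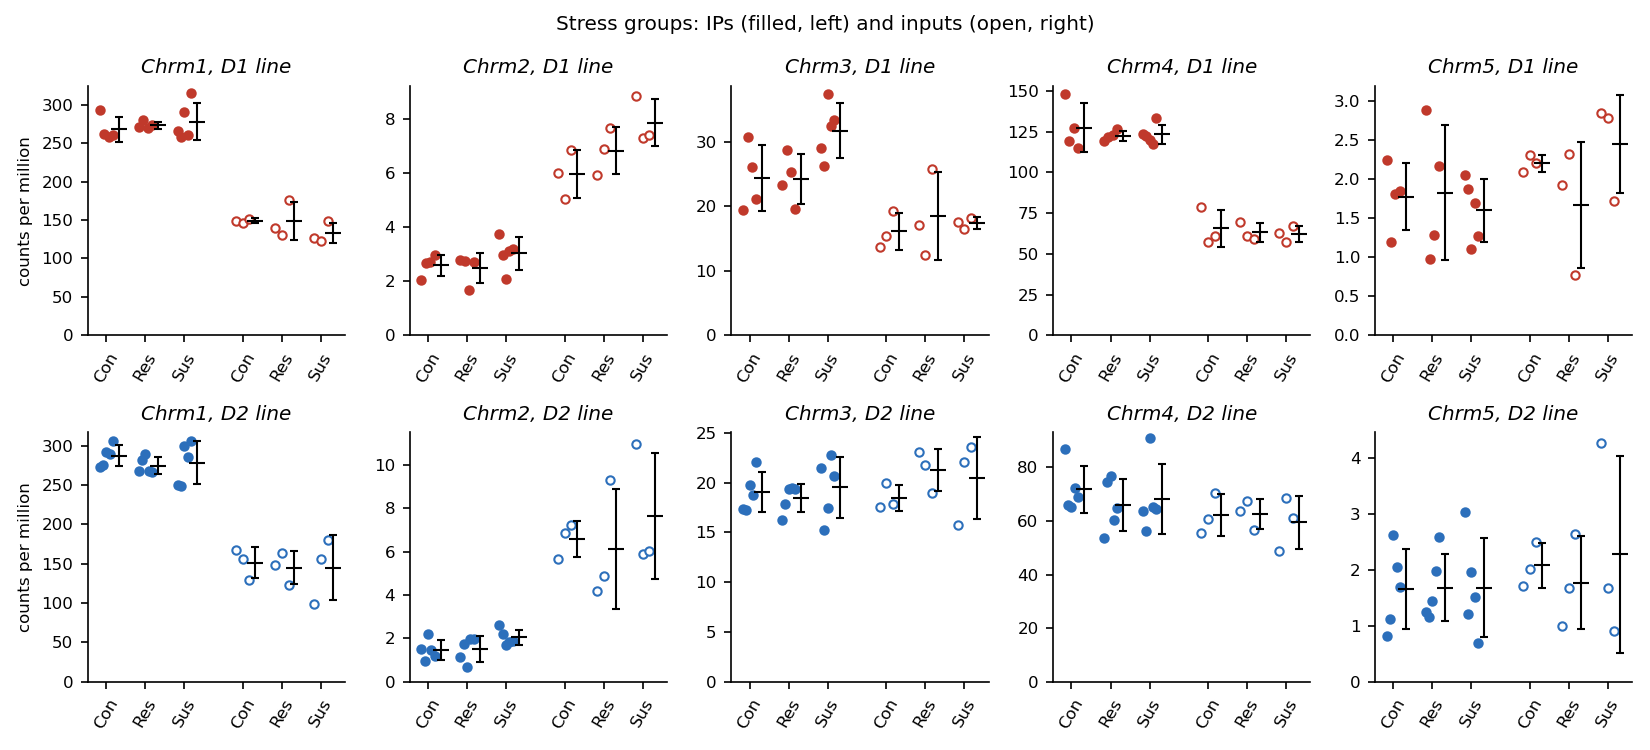
CPM of each receptor gene (vertical axis, from 0, a separate scale for each panel) in Con, Res and Sus IPs (filled) and inputs (open), for the D1 line above and the D2 line below. Points are libraries and the black marks the mean ± SD. D1 Sus IPs hold more *Chrm3* (26.2 to 37.3 CPM) than D1 Con IPs (19.4 to 30.7) with overlap. *Chrm2* in the inputs of the D1 line is 7.30 to 8.84 CPM in Sus and 5.03 to 6.83 in Con, without a call.

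Of the other muscarinic signalling genes, 3 of 43 were called in D1 Sus against Con, near the 5.34% of all genes, each lower: *Rgs10* (log2 -0.25), *Rgs8* (-0.16) and *Rgs14* (-0.13). *Rgs8* stood at 336 ± 29.9 CPM in Con and 301 ± 25.8 in Sus. Res against Con in D1-IPs had *Slc18a3* (1.41) and *Chat* (0.70) higher, and D1 Res replicate 1 held the highest *Chat* of the D1-IPs, at 6.70 CPM. D1 Sus against Res had *Kcnj9* (0.24) higher and *Rgs14* (-0.19), *Rgs8* (-0.17) and *Kcnj4* (-0.13) lower. In the D2 line, Sus against Con had *Plcb2* higher (0.27) and *Kcnj4* lower (-0.13), and Res against Con had *Plcb3* higher (0.49). None of these passed the correction over all genes.

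The last comparison set the 4 libraries labelled Sirt1-KO against 4 D1 Con IPs, which also serve as Con in the stress comparisons. *Sirt1* itself stood at 13.7 ± 2.64 CPM in the libraries labelled Sirt1-KO and 14.7 ± 1.46 in Con, so its count did not check the label, and the label cannot be told apart from when or where these libraries were made. CPM values here come from a table of 8 libraries scaled by themselves, so Con values differ a little from those above. None of the 5 receptors was called by edgeR, where 0.749% of 13626 genes were (102, with 38 higher and 64 lower in the libraries labelled Sirt1-KO, and 2352 at an unadjusted p under 0.05). By edgeR, 3 of the 5 receptors (*Chrm1*, *Chrm3* and *Chrm4*) had an unadjusted p under 0.05. DESeq2 called none as well, although *Chrm3* had an adjusted p = 0.0112 there, under the fold limit.

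*Chrm3* stood at 34.1, 33.0, 33.0 and 28.4 CPM in the libraries labelled Sirt1-KO and at 18.4, 29.1, 24.7 and 20.1 in Con, with 3 of 4 above all Con (log2 0.48, SE 0.128, adjusted p = 0.0814). *Chrm1* stood at 263, 297, 287 and 310 CPM against 277, 248, 244 and 248 (0.19, adjusted p = 0.153). *Chrm4* stood at 88.1, 100.4, 93.3 and 117.9 CPM against 140.2, 112.9, 120.6 and 109.5, with 3 of 4 below all Con (-0.27, adjusted p = 0.175). The ranges of all 3 genes overlapped between the groups. *Chrm5* stood at 1.22 ± 0.226 against 1.68 ± 0.410 CPM (-0.47, adjusted p = 0.361) and *Chrm2* at 2.67 ± 0.460 against 2.45 ± 0.376 (log2 0.13).

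Exact permutation tests, two-sided, gave p = 0.0571 for *Chrm3*, 0.0571 for *Chrm1* and 0.0857 for *Chrm4*, where 4 against 4 allows no p below 0.0286. Leaving out D1 Con replicate 2 brought *Chrm3* to a call, at 0.61 (adjusted p = 0.0342). Cell type markers moved here too. *Slc17a7* stood at 1058 ± 280 CPM against 572 ± 219 and the 7 cortical markers summed to 1296 to 2060 CPM against 822 to 1522, with 0 of 7 called. The D1-MSN markers summed to 826 to 1030 CPM against 1111 to 1357, and the cholinergic markers to 20.8 to 27.3 CPM against 34.7 to 37.1. *Isl1* is on both of these lists. The D2-MSN markers summed to 1647 to 2600 CPM against 2277 to 3306, and other interneuron markers to 203 to 231 against 173 to 193. The part of these cells in the receptor values was not tested. Of 42 tested muscarinic signalling genes, only *Slc5a7* was called, lower in the libraries labelled Sirt1-KO (-1.11, adjusted p = 0.0356).

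**Figure D5:**
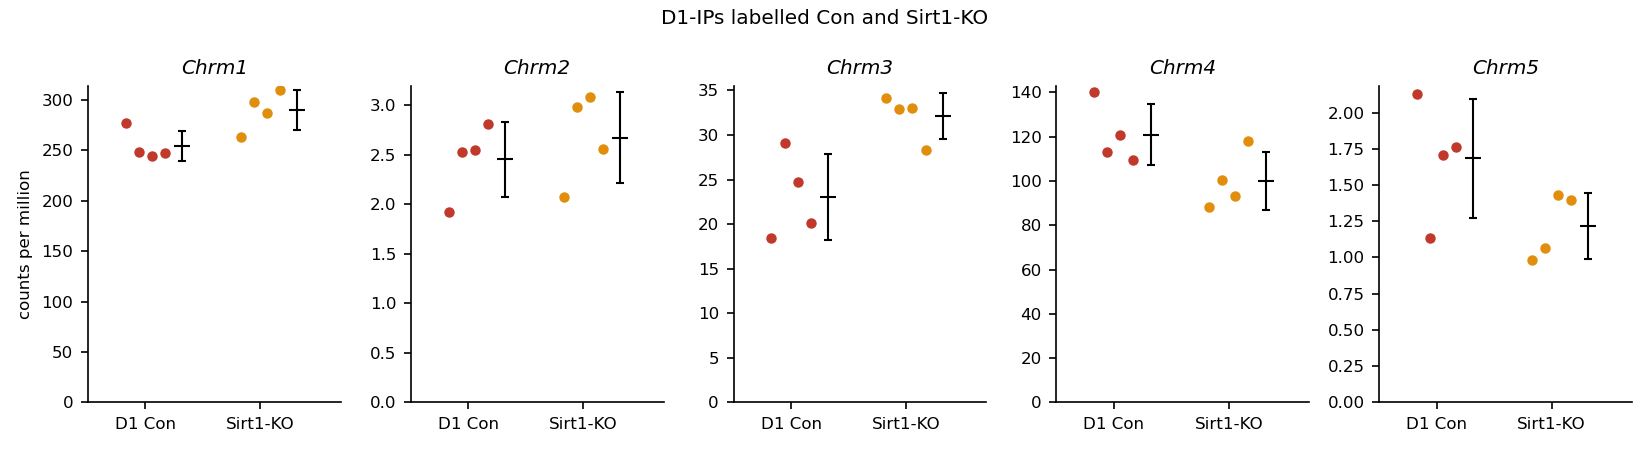
CPM of each receptor gene (vertical axis, from 0, a separate scale for each gene) in D1 Con IPs (n = 4) and IPs labelled Sirt1-KO (n = 4). Points are libraries and the black marks the mean ± SD. *Chrm3* is 28.4 to 34.1 CPM under the Sirt1-KO label against 18.4 to 29.1 in Con, *Chrm4* is 88.1 to 117.9 against 109.5 to 140.2, and no receptor was called.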

How the data were processed

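RNA of IPs and inputs (poly-A selection, stranded kit) was sequenced, and the authors trimmed reads with cutadapt, aligned them with STAR to mm10 and deposited HTSeq gene counts (versions, annotation and strand setting are not given in the sources used here). The deposited counts were used as they stand: 24552 genes per table, after leaving out 5 unnamed entries that held 18% to 28.3% of reads in IPs and 35.9% to 40% in inputs. The Sirt1-KO table repeats 4 D1 Con libraries, and 2 columns (of no sample listed) were not used. No 2 replicates of the 70 pairs agreed within sampling noise (chi-square per gene at least 3.6). Genes were filtered with filterByExpr (at least 10 counts, 15 in total), scaled by TMM and tested with edgeR 4.0.16 quasi-likelihood fits in R 4.3.3, with Benjamini-Hochberg adjustment over all genes tested: 14224 (IPs), 15404 (IPs and inputs), 15063 (inputs) and 13626 (Sirt1-KO). A gene was called at an adjusted p under 0.05 with more than 1.5-fold change, or, for stress, at the unadjusted p under 0.05 of the study's methods. Genes named are the 5 receptors, called genes of the lists, and the 3 genes most like each receptor. CPM values use TMM library sizes. Some genes of the lists enter the counts but are not reported here by name. Depth set the precision: at 16 to 236 counts, *Chrm2* and *Chrm5* carry more counting error than the others. Other settings were DESeq2 1.42.0, RLE size factors, other count filters, the replicate number as a block, subsets of libraries and leaving out each library. IPs were blocked with their inputs because titles and protocol tie both to 1 homogenate, although their deviations correlated little (18 pairs, median r = 0.03, 3 over 0.1). The steps were tested on simulated data. The receptors, although picked by symbol alone, and the gene lists were chosen with earlier results of these data known. Positions come from GENCODE vM21 and the promoter from RefSeq (4 of 5 receptors had an entry).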

Additional observations from a re-analysis of the deposited data

Results flagged for a closer look

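Of 35 sets of 4 or 5 IPs of a receptor in a group, 3 held a library far from the others, where chance gives about 1 in 20. *Chrm1* was 292.6 CPM in D1 Con IP replicate 1 against 257.9 to 262.2 in the others. *Chrm2* was 1.67 CPM in D1 Res IP replicate 3 against 2.72 to 2.80. *Chrm4* was 90.9 CPM in D2 Sus IP replicate 3 against 56.4 to 65.3, and it remained below every D1-IP.

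The enrichment of IP over input differed between the lines, by the test of the difference itself, for *Chrm4* (log2 0.81), *Chrm3* (0.69) and *Chrm2* (0.67). For *Chrm2* the call was lost in the fit that blocked IPs with their inputs, which rested on 18 IPs. For both *Chrm2* (adjusted p = 0.0769) and *Chrm3* (adjusted p = 0.124) it was lost with control libraries only.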

How the results depend on the processing

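Of 533 receptor values under other settings, 501 kept direction and side of the threshold, 7 were no longer called, 2 became called and 23 changed sign. Those 23 were at most 0.113 in size (log2), and none had been called. Of 1380 values with 1 library left out, 4 lost and 14 gained a call and 171 changed sign (at most 0.317, none of them called). Causes were not tested.

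Between D1-IPs and D2-IPs, *Chrm2* lost its call in Res (0.70) and Sus (0.54) pools alone, leaving 1 receptor called in Res, and *Chrm5* had -0.11 in Sus (-0.072 to 0.13 with 1 library left out). *Chrm3* in D1-IPs against inputs was 0.53 when the filter asked for a mean count of 50 or more, and 0.55 to 0.73 with 1 library left out. Against D2-inputs *Chrm3* was 0.062 in control pools (-0.099 to 0.0069 with 1 left out) and *Chrm5* ran from -0.36 to 0.050. In the enrichment difference, control pools alone gave 0.93 for *Chrm2* and 0.53 for *Chrm3*, both no longer called (1 receptor called), and -0.095 for *Chrm1* and -0.0063 for *Chrm5*. There DESeq2 gave -0.019 for *Chrm1* and -0.0060 for *Chrm5*, RLE size factors gave -0.018 and -0.0091, the mean filter gave -0.0056 for *Chrm1*, and the replicate block gave 0.65 for *Chrm2*. Leaving out 1 library gave -0.092 to 0.040 for *Chrm1*, 0.52 to 0.72 for *Chrm2* and -0.30 to 0.11 for *Chrm5*. *Chrm3* in D1 Sus against Con was 0.39 by the exact permutation test, with 0 receptors called.

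Genes called changed as follows. With the mean filter there were 622 between D1-IPs and D2-IPs, 4164 and 4209 against D1- and D2-inputs, and 172 for stress by line, Sus against Con. Con pools alone gave 709 between IPs and 507 for the enrichment difference. All genes with at least 1 count gave 478 in D1 Res against Con, 447 in D2 Sus against Res, 453 and 520 for stress by line (Sus and Res against Con) and 170 for Sirt1-KO. The D2 line alone gave 412, 286 and 418 in the inputs (Sus against Con, Res against Con, Sus against Res). DESeq2 gave 11 between inputs and 233 for Sirt1-KO. The replicate block gave 7 between inputs, 690 in D2 Res against Con, 568 for stress by line in Res against Con and 593 for Sirt1-KO, with 1 receptor, *Chrm3* (0.67), called there. The Sirt1-KO block rested on replicates 1, 3 and 4 of each group. Replicate 2 was in Con alone and replicate 5 under the Sirt1-KO label alone. They held the highest *Chrm3* of Con (29.1 CPM) and the lowest under that label (28.4 CPM). Sirt1-KO numbers did not pair libraries (3 pairs, r -0.0082 to 0.077). Among IPs of different groups, 17 of 66 same-numbered pairs had r over 0.1, against 27 of 260 pairs with other numbers. Their median r was 0.055 and -0.015, so same-numbered IPs were slightly more alike, for a reason that was not tested. The block changed no other receptor call than *Chrm2* and *Chrm3* named here.

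With 1 library left out, genes called ran from 1 to 6 between inputs, 482 to 921 in D1 Sus against Con, 203 to 488 in D1 Res against Con, 210 to 535 in D2 Sus against Res, 495 to 1186 and 565 to 1431 in inputs (Sus against Con, Sus against Res), 218 to 427 and 274 to 514 for stress by line and 29 to 386 for Sirt1-KO. Receptors called ran from 0 to 2 in D2 Sus against Con (*Chrm2* 0.35 to 0.66, and *Chrm4*, -0.20 without D2 Sus replicate 3) and 0 to 1 in D2 Sus against Res (*Chrm2* 0.26 to 0.57), input Res against Con (*Chrm3* without D1 Res input replicate 2) and Sus against Res (*Chrm2* without D2 Res input replicate 3, *Chrm5* without D2 Sus input replicate 3), stress by line Sus against Con (*Chrm3* 0.25 to 0.47) and Sirt1-KO (*Chrm3* 0.38 to 0.61).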
